A study of Homo sapiens with 6 samples.

Results

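The amino acid transporters described here are 10 solute carrier (SLC) genes: SLC7A11, SLC7A5, SLC3A2, SLC38A1, SLC38A2, SLC1A5, SLC7A1, SLC1A4, SLC6A9 and SLC43A1. They were chosen by name with earlier results of these data known, although the rule itself uses no measured values. All 10 were found, each as 1 protein-coding row, among the 58735 genes of the count table. The series compared SKOV3ip1 cells given BARD1 siRNA with the same cells given control siRNA. SKOV3ip1 is an established human ovarian adenocarcinoma line derived from SKOV3, labelled wild type, and both groups received 2 µg of siRNA with a cationic lipid and were harvested at 48 h. Each group had 3 libraries of poly(A)-selected RNA that the titles number as biological replicates, and nothing says whether these cultures were transfected on separate days, so p-values measure the spread between these samples. All libraries come from 1 cell line, and the sequence of neither siRNA was known here. The design asks how loss of BARD1, the RING-domain partner of BRCA1, affects pathways of tumour angiogenesis.

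Amino acid transporters of the plasma membrane set how much cystine, glutamine, leucine, arginine and small neutral amino acids a cell takes up. Several work in series. SLC38A1 and SLC38A2 concentrate glutamine and other neutral amino acids with sodium, and SLC1A5 exchanges such amino acids, also with sodium. The exchanger SLC7A5 can trade these amino acids for leucine, which activates the growth kinase mTORC1. SLC7A5 and SLC7A11 are light chains that each reach the membrane bound by a disulfide to the same heavy chain, SLC3A2 (CD98, 4F2hc). When amino acids run short or misfolded protein accumulates, the transcription factor ATF4 is translated and, with C/EBP partners, binds composite response elements in many of these genes. NRF2, encoded by NFE2L2, is a known activator of SLC7A11, and MYC of several importers of glutamine and leucine.

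Sequences at the annotated starts of these genes show where such elements lie. The RefSeq promoter table (GRCh38.p14) covers 250 bases before to 50 after a start and held 16 windows for 9 of the 10 genes, SLC7A11 being without an entry. The composite C/EBP-ATF element was searched as TGATGNAA on both strands. It was found in 5 of the 16 windows, 1 in each of 5 genes, and in 3.62% of all 35116 windows, or 4.46% of genes, of the table. The matches are shown because this is the element named above for ATF4, and whether a match bears on a change was not tested. Each is printed 5′ to 3′ along the strand of the gene, with the match in capitals.
SLC3A2: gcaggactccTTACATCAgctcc
SLC38A1: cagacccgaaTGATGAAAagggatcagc
SLC1A5: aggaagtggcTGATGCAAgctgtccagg
SLC7A1: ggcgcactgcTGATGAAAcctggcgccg
SLC1A4: cggctcccgtTTGCATCAtctccagccg

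The SLC3A2 match (chr11:62881726-62881748, plus strand) lies on the opposite strand of the gene and begins at base 38 after an annotated start. That of SLC38A1 (chr12:46266503-46266530, minus strand) begins 4 bases before a start and that of SLC7A1 (chr13:29595664-29595691, minus strand) at base 8 after it. The SLC1A4 match (chr2:64989382-64989409, plus strand) begins 7 bases before a start and is also on the opposite strand. The SLC1A5 match (chr19:46784894-46784921, minus strand) lies 97 bases before a start. For SLC3A2, SLC38A1, SLC1A4 and SLC1A5 the start with the match lies inside the gene, and the window furthest upstream held none. The windows of SLC38A2, SLC7A5, SLC6A9 and SLC43A1 held no match to these letters. A match is a description of the sequence and shows no binding.

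The core of the antioxidant response element, TGACNNNGC, was found in 4 of the 16 windows, those of SLC3A2, SLC7A5, SLC7A1 and SLC1A5, and in 13.3% of all. The MYC-type E-box CACGTG was found in 3, those of SLC7A5, SLC1A5 and SLC43A1, and in 7.26% of all. The matches of the heavy chain and of its main light chain are shown, a choice made with the opposite changes of their mRNAs known. Those of SLC7A1, SLC1A5 and SLC43A1 are not printed, and whether a match bears on a change was not tested. The SLC3A2 match (chr11:62881652-62881680) overlaps the letters of an AP-1 site, and the SLC7A5 E-box (chr16:87869622-87869647) begins 130 bases before the start.
SLC3A2, antioxidant core: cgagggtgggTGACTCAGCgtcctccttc
SLC7A5, antioxidant core: gcggggttccTGACGCAGCtgcgggcggc
SLC7A5, E-box: ccggacgacgCACGTGctccgagctg

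The libraries held 16621108 to 17743404 gene counts, and normalised CPM are these counts scaled to a library of 1e6 with TMM factors. BARD1 itself was counted 805, 644 and 887 times in the control libraries against 96, 110 and 169 times after its siRNA. BARD1 mRNA thus fell, with an edgeR log2 fold change of −2.58 (SE 0.14, adjusted p = 1.21e-15, quasi-likelihood test). The groups separated on the first principal component (61.9% of the variance), and mitochondrially encoded genes took 5.23% to 5.73% of counts with control siRNA and 4.93% to 5.15% with BARD1 siRNA. Summed levels of 8 epithelial and ovarian carcinoma markers were 4035 to 4415 CPM with control siRNA and 4225 to 4336 CPM with BARD1 siRNA, although WT1 and MUC16 were at trace levels. Within that sum 2 of the 6 tested markers rose and 3 fell: the lineage factor PAX8 went from 350 to 589 CPM and KRT18 from 258 to 340 CPM, while KRT7 went from 264 to 134, EPCAM from 50.2 to 42.5 and ERBB2 from 2100 to 1911 CPM. The edgeR calls of EPCAM and ERBB2 were lost without BARD1 siRNA replicate 2 (adjusted p = 0.0806 and 0.0661), that of EPCAM also without BARD1 siRNA replicate 3 (0.0896) and that of ERBB2 without control siRNA replicate 1 (0.0538). The part of these markers in the transporter results was not tested. Of 5 leukocyte markers PTPRC, CD3E and CD68 had 0 counts in every library, and the summed fibroblast and endothelial markers reached at most 10.2 and 1.30 CPM. In RNA of whole cultures, fewer cells with an mRNA and less of it per cell cannot be told apart.

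Among the 10 transporters 6 rose, 1 fell and 3 did not pass the test. Those that rose were SLC38A2, SLC3A2, SLC6A9, SLC38A1, SLC7A11 and SLC1A5, by 3.78-fold at most, and SLC7A5 fell 1.18-fold. Passing means an adjusted p under 0.05 over the 15271 genes tested, of which 42.3% passed, 22.0% as higher and 20.3% as lower. That split was 3355 higher and 3107 lower genes, and 2815 and 3975 with upper-quartile factors or 2852 and 3906 with library size alone. The median log2 fold change of the 10 was 0.73, and that of all tested genes was −0.0075. The set was chosen with earlier results of these data known, so these figures describe it and are no test. All 10 passed the filter on low counts, the lowest with 23 counts in its poorest library. The counts of 6 higher and 1 lower held in each of the 16 alternative analyses, and the range of each gene over them is drawn beside its interval. The groups did not overlap for 8 of the 10, with 7 higher and 1 lower. Over all tested genes 50.4% did not overlap, 25.8% with the BARD1 siRNA libraries higher and 24.7% with them lower.

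**Figure D1:**
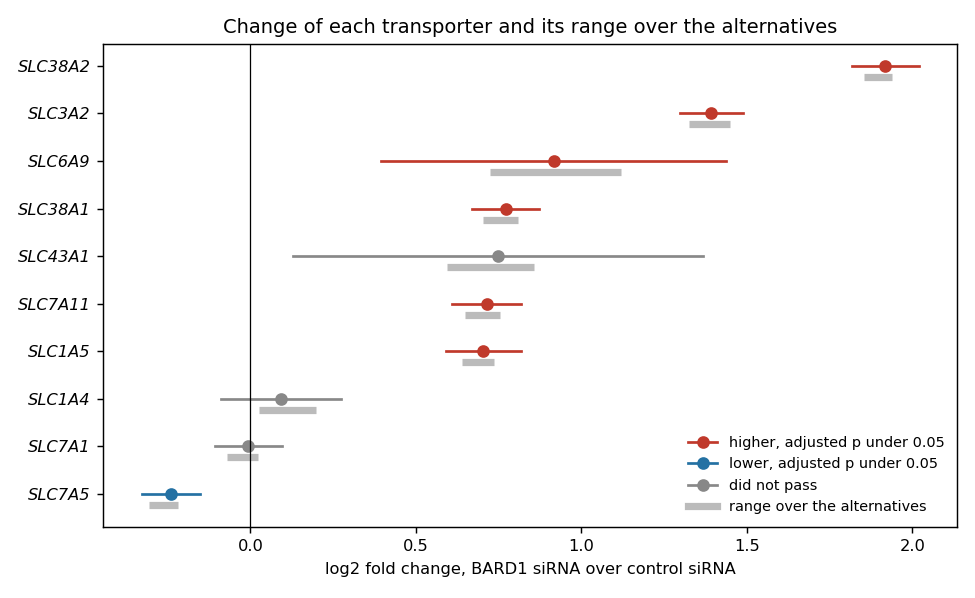
Log2 fold change of each transporter (horizontal axis, BARD1 siRNA over control siRNA), with points for the estimate, thin lines for its 95% interval and grey bars for the range over 16 alternatives. SLC38A2 and SLC3A2 lie furthest to the right at 1.92 and 1.39, and SLC7A5 alone lies left of zero with an interval that does not reach it.

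The heavy chain SLC3A2 and its light chain SLC7A11 rose, and its light chain SLC7A5 fell. SLC3A2 (ENSG00000168003, GRCh38 chromosome 11, 62856102 to 62888875, plus strand) encodes the glycoprotein that carries the light chains to the membrane. Its normalised level was 474, 543 and 493 CPM in control replicates 1 to 3 and 1330, 1358 and 1275 CPM with BARD1 siRNA. Every BARD1 siRNA library was far above every control library. The level rose 2.62-fold, from 503 ± 35.6 to 1321 ± 42.2 CPM (SD, n = 3 per group; edgeR log2 fold change 1.39 with SE 0.05, adjusted p = 6.61e-30). SLC3A2 holds both the composite and the antioxidant core letters printed above, around 1 annotated start. So does SLC7A1, whose log2 fold change was −0.0058, and whether a match bears on a change was not tested.

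SLC7A5 (ENSG00000103257, chromosome 16, 87830023 to 87869488, minus strand) encodes LAT1, the exchanger for leucine and other large neutral amino acids. It was at 1696, 1735 and 1605 CPM in the control libraries and at 1426, 1465 and 1374 CPM after BARD1 siRNA. The groups did not overlap, but the nearest libraries were close together. The fall from 1679 ± 66.6 to 1422 ± 45.8 CPM was small (edgeR log2 fold change −0.24 with SE 0.04, adjusted p = 1.24e-05). It was the 1 member that fell, and its estimate ran from −0.31 to −0.22 over the alternatives. The copy SLC7A5P1, to which reads of SLC7A5 could have been assigned, had 119 counts over the control and 258 over the BARD1 siRNA libraries, beside 160105 counts of SLC7A5 in all.

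SLC7A11 (ENSG00000151012, chromosome 4, 138164097 to 138242349, minus strand) encodes xCT, which imports cystine in exchange for glutamate and so feeds glutathione synthesis. It was at 252, 216 and 243 CPM in the control libraries and at 397, 398 and 371 CPM after BARD1 siRNA. All BARD1 siRNA libraries were higher, and control replicate 2 was the lowest of all. The mRNA rose 1.64-fold, from 237 ± 18.8 to 389 ± 15.3 CPM (edgeR log2 fold change 0.71 with SE 0.05, adjusted p = 1.58e-16). The antisense gene SLC7A11-AS1 shares 865 exonic bases with it, or 8.97% of the exonic length of SLC7A11. SLC7A11-AS1 had 43 and 93 counts over the groups, beside 12486 and 19624 of SLC7A11. It was itself called higher (log2 fold change 1.17, edgeR adjusted p = 0.0310). With the strand setting of the counting not given, reads from the shared stretch cannot be assigned with certainty. SLC7A6, a further light chain of SLC3A2 that was picked out after its values were seen, passed at 23.9 ± 1.03 and 28.3 ± 1.95 CPM (edgeR log2 fold change 0.25 with SE 0.10, adjusted p = 0.0415). Its call was lost in 9 of the 16 alternatives, where the adjusted p reached 0.177. Those included each single library left out apart from BARD1 siRNA replicate 2.

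**Figure D2:**
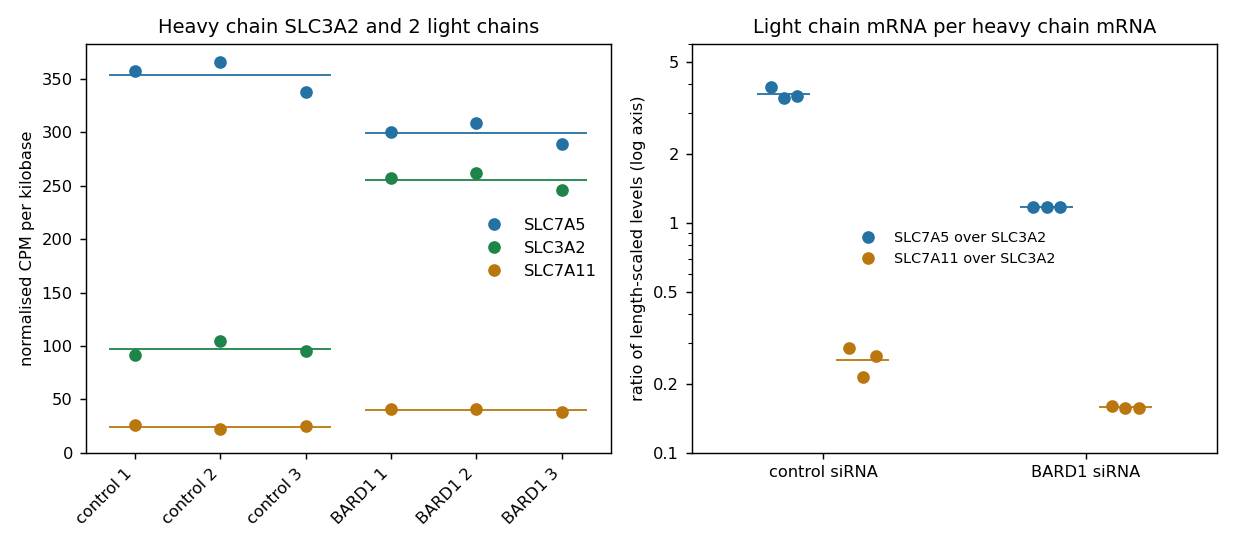
Left, normalised CPM per kilobase (vertical axis) of SLC7A5, SLC3A2 and SLC7A11 in each library, with lines at group means. Right, ratio of each light chain to SLC3A2 by group on a log axis, with a point per library and lines at means; SLC7A5 over SLC3A2 goes from 3.65 to 1.17 and SLC7A11 over SLC3A2 from 0.254 to 0.158.

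Per length of all annotated exons together, SLC7A5 mRNA exceeded SLC3A2 mRNA by several fold in control cells and was nearly level with it after BARD1 siRNA. The lengths of the transcripts present were not measured. The size of a ratio within a group therefore depends on this divisor, which cancels in the fold between groups. The ratio of CPM per kilobase was 3.90, 3.49 and 3.56 in the control libraries and 1.17, 1.18 and 1.18 in the BARD1 siRNA libraries, a 3.10-fold drop. SLC7A11 also lost ground to the heavy chain, since SLC3A2 rose more: its ratio was 0.285, 0.213 and 0.265 in controls and 0.160, 0.157 and 0.156 after BARD1 siRNA. Between the light chains the balance moved towards SLC7A11, whose ratio to SLC7A5 went from 0.0696 ± 0.00730 to 0.134 ± 0.00224 (SD, n = 3), a 1.94-fold increase. For each of the 3 ratios the groups did not overlap, and a two-sided exact permutation test gave p = 0.10, the smallest that 3 against 3 libraries allow. Adjusted over the 4 ratios computed, each stayed at 0.10, so that none can pass 0.05 in this design.

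The system A transporters SLC38A1 and SLC38A2, which concentrate glutamine, alanine and serine with sodium, both rose. The genes lie next to each other on chromosome 12, both on the minus strand, 88.2 kb apart and with 0 other genes of the table between them. SLC38A2 (SNAT2; ENSG00000134294, 46358189 to 46372867) is known as the member of the pair that responds to amino acid shortage and to osmotic stress. It was at 126, 122 and 130 CPM in the control libraries and at 476, 490 and 463 CPM after BARD1 siRNA. No other member of the set changed by as much. The increase was 3.78-fold, from 126 ± 4.21 to 476 ± 13.4 CPM (edgeR log2 fold change 1.92 with SE 0.05, adjusted p = 1.73e-35). The window at its start, from 250 bases before to 50 after it, held none of the 3 searched motifs, and the rest of the gene was not searched.

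SLC38A1 (SNAT1; ENSG00000111371, 46183063 to 46270017) was at 299, 259 and 302 CPM in the control libraries and at 484, 496 and 487 CPM after BARD1 siRNA. The BARD1 siRNA libraries lay close together and above all controls, among which replicate 2 was again the lowest. It rose 1.71-fold (edgeR log2 fold change 0.77 with SE 0.05, adjusted p = 3.49e-18). As a result of the unequal increases the length-scaled ratio of SLC38A1 to SLC38A2 turned over, from 1.56, 1.40 and 1.53 to 0.670, 0.668 and 0.694 in the 3 libraries of each group (exact permutation p = 0.10, two-sided, the smallest possible). This last ratio was added after the values were seen, and its turn depends on the exon lengths used as divisor.

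**Figure D3:**
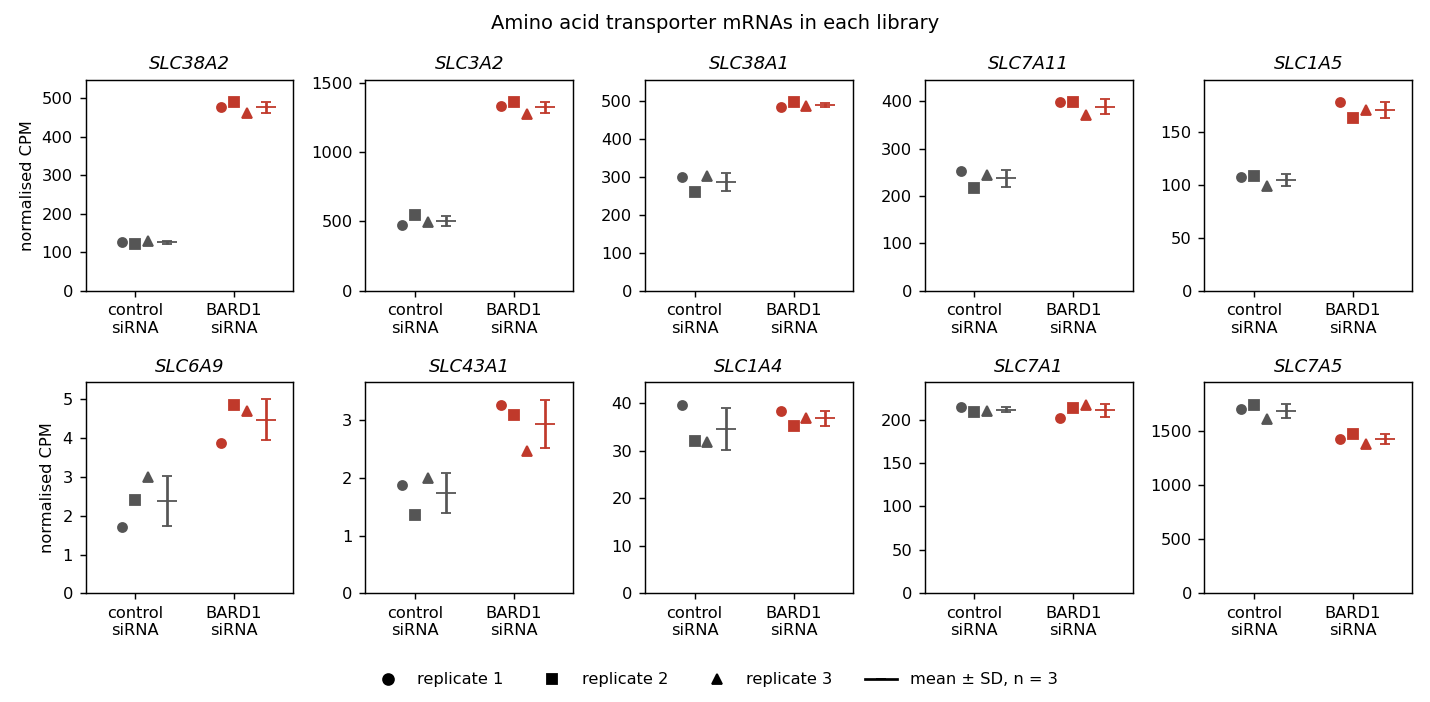
Normalised CPM (vertical axes, each from 0) of the 10 transporters in every library, by siRNA group, with symbols for replicate number and bars for mean ± SD. The groups are apart for 8 genes and overlap for SLC1A4 and SLC7A1, and SLC6A9 and SLC43A1 stay under 5 CPM throughout.

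Of the related SLC1 genes SLC1A5 rose and SLC1A4 did not pass the test. SLC1A5 (ASCT2; ENSG00000105281, chromosome 19, 46774883 to 46788594, minus strand) exchanges neutral amino acids and is a main route of glutamine uptake in many tumour cells. It was at 107, 108 and 98.2 CPM in the control libraries and at 178, 163 and 170 CPM after BARD1 siRNA. The groups were clearly apart. It rose 1.63-fold (edgeR log2 fold change 0.70 with SE 0.06, adjusted p = 3.93e-15).

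SLC1A4 (ASCT1; ENSG00000115902, chromosome 2, 64988477 to 65023865, plus strand), an exchanger of serine, alanine and cysteine, was at 39.6, 32.1 and 31.8 CPM in the control libraries and at 38.3, 35.1 and 36.9 CPM after BARD1 siRNA. Control replicate 1 was the highest of the 6 libraries and the groups overlapped. The log2 fold change was 0.092, with a 95% interval of −0.090 to 0.27 (edgeR adjusted p = 0.456). This interval lies below the estimate for SLC1A5. The difference between these genes was not tested.

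SLC7A1 (CAT1; ENSG00000139514, chromosome 13, 29509410 to 29595688, minus strand), the main importer of arginine and lysine, was level between the groups. It was at 215, 209 and 211 CPM in the control libraries and at 202, 213 and 217 CPM after BARD1 siRNA. The BARD1 siRNA values lay on either side of the controls. The log2 fold change was −0.0058, with a 95% interval of −0.11 to 0.10 (edgeR adjusted p = 0.940), which leaves out increases of the size seen for the 6 genes that rose. Its sign turned with 2 of the 16 alternatives.

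The other 2 genes were expressed at a low level. SLC6A9 (GLYT1; ENSG00000196517, chromosome 1, 43991500 to 44031467, minus strand), a glycine importer, had 30, 41 and 54 counts in the control libraries and 63, 82 and 82 after BARD1 siRNA. The groups did not overlap, although control replicate 3 came near BARD1 siRNA replicate 1. It rose 1.89-fold, from 2.37 ± 0.645 to 4.48 ± 0.529 CPM (edgeR log2 fold change 0.92 with SE 0.27, adjusted p = 0.00392), and the adjusted p ranged from 0.00150 to 0.0394 over the alternatives. CCDC24, on the opposite strand, shares 404 exonic bases with SLC6A9, or 7.83% of its exonic length. Because the strand setting of the counting is not given, reads from that stretch cannot be assigned with certainty. CCDC24 itself had 637 counts over the control and 561 over the BARD1 siRNA libraries (log2 fold change −0.13, edgeR adjusted p = 0.514).

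SLC43A1 (LAT3; ENSG00000149150, chromosome 11, 57484534 to 57515786, minus strand), which carries leucine and other large neutral amino acids by facilitated diffusion, had 33, 23 and 36 counts in the control libraries and 53, 52 and 43 after BARD1 siRNA. All 3 BARD1 siRNA libraries were above all controls after normalisation. The log2 fold change was 0.75, with a 95% interval of 0.13 to 1.37 that leaves out 0 and an unadjusted p of 0.0221 in the edgeR test. Adjusted over all tested genes p was 0.0518 and missed the threshold, and it ranged from 0.0502 to 0.176 over the alternatives.

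Levels of different genes can be set side by side only per length. The length here is that of all annotated exons together, so the order depends on this divisor. With control siRNA the order by normalised CPM per kilobase was SLC7A5 at 354 ± 14.0, SLC3A2 at 97.2 ± 6.88, SLC1A5 at 31.4 ± 1.64, SLC38A1 at 28.6 ± 2.40, SLC7A1 at 27.5 ± 0.361, SLC7A11 at 24.6 ± 1.95, SLC38A2 at 19.1 ± 0.638 and SLC1A4 at 4.97 ± 0.639 (SD, n = 3). SLC43A1 and SLC6A9 were last, at 0.493 ± 0.0975 and 0.459 ± 0.125. The ranges of neighbours overlapped for SLC1A5 and SLC38A1, for SLC38A1 and SLC7A1, and for SLC43A1 and SLC6A9. With BARD1 siRNA SLC38A2 stood at 72.1 ± 2.03, behind only SLC7A5 at 300 ± 9.66 and SLC3A2 at 255 ± 8.14. SLC7A11, at 40.3 ± 1.58, then lay above SLC7A1, at 27.4 ± 1.04. Only the neighbours SLC1A5 and SLC38A1, at 51.1 ± 2.22 and 48.8 ± 0.594, and the lowest pair still overlapped.

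**Figure D4:**
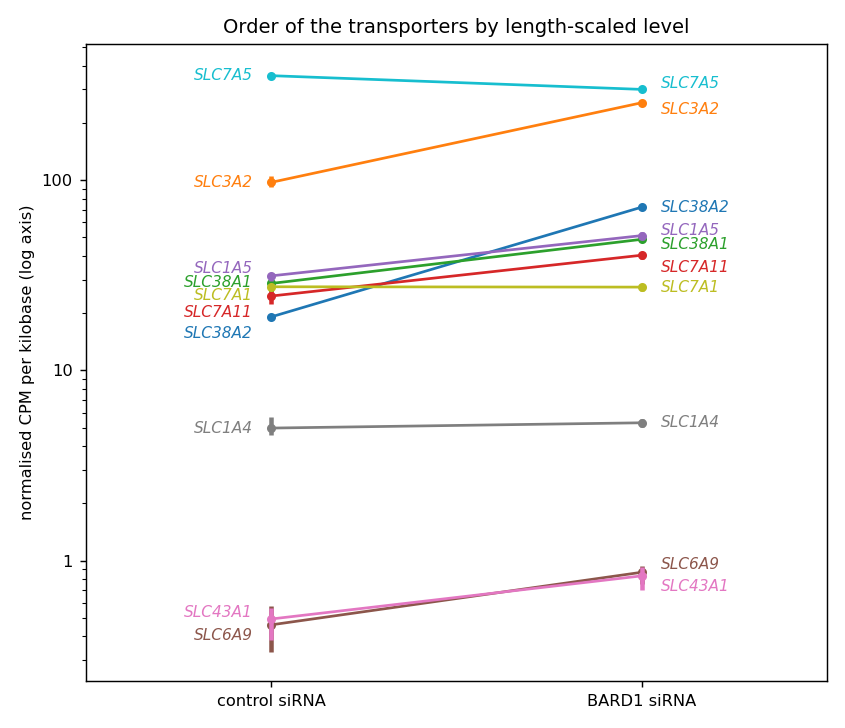
Mean level of each transporter in normalised CPM per kilobase (vertical log axis) in the control siRNA and BARD1 siRNA groups, with vertical bars from the lowest to the highest of 3 libraries. The line of SLC38A2 crosses those of 4 other genes on its way from 19.1 to 72.1, while SLC7A1 runs flat near 27.

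Together the 10 transporters took 0.318% to 0.331% of all gene counts in the control libraries and 0.432% to 0.452% in the BARD1 siRNA libraries. In normalised CPM their sum was 3120 to 3228 with control siRNA and 4401 to 4625 with BARD1 siRNA, and these ranges lay apart. SLC7A5 supplied 52.7% of the summed mean with control siRNA and 31.4% with BARD1 siRNA, whereas SLC3A2 went from 15.8% to 29.2%. SLC38A2 went from 3.95% to 10.5% of the sum. In CPM, the gains were 818 for SLC3A2, 350 for SLC38A2, 203 for SLC38A1, 152 for SLC7A11 and 65.7 for SLC1A5. SLC7A5 fell by 257 CPM, and the means of the other 4 genes differed by −0.869 to 2.28 CPM. These shares and gains are not divided by gene length, so they describe counts and do not rank the transcripts of different genes.

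Other amino acid transporters of the plasma membrane and lysosome were measured alongside. Of 41 such genes found, 10 had 0 counts in all libraries and 18 could be tested, with 8 higher and 2 lower and a median log2 fold change of 0.25. These are 44.4% and 11.1% of those tested, beside 22.0% and 20.3% of all tested genes. With upper-quartile factors or library size alone 6 rose and 3 fell. With DESeq2 or no filter on low counts 6 rose and 2 fell. SLC6A6, the taurine importer, rose from 39.1 ± 2.53 to 113 ± 3.57 CPM (edgeR log2 fold change 1.53 with SE 0.07, adjusted p = 2.53e-25). SLC38A9, a lysosomal arginine sensor that signals to mTORC1, rose by 0.59. The 2 that fell were SLC1A1, the glutamate and cysteine importer EAAT3, at −0.62, and SLC7A2, a cationic amino acid importer of the same family as SLC7A1, at −0.77. The call of SLC7A2 was lost without BARD1 siRNA replicate 3 (edgeR adjusted p = 0.0607), and without control siRNA replicate 3 the count of higher genes was 5.

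Among transcriptional regulators of these genes 10 of 13 tested rose and 2 fell, with a median of 1.22. These are 76.9% and 15.4% of those tested, beside 22.0% and 20.3% of all tested genes, and this list too was chosen with earlier results known. ATF4, the main factor of the amino acid response, rose from 208 ± 11.3 to 485 ± 9.53 CPM (edgeR log2 fold change 1.22 with SE 0.05, adjusted p = 3.41e-27). ATF3, DDIT3, NUPR1 and TRIB3, stress genes that act downstream of or with ATF4, rose by 5.35, 4.02, 3.73 and 2.47 on the log2 scale. MYC rose from 84.5 ± 4.26 to 225 ± 9.80 CPM, or by 1.41 on the log2 scale. NFE2L2 rose by 0.29, and its repressor KEAP1 and the ATF4-related factor ATF5 fell by 0.24 and 0.30. BACH1, a further repressor in the list, rose by 0.88 (edgeR adjusted p = 7.30e-12) and was picked out after its values were seen. The list thus mixes activators with repressors, and its counts do not separate them. These are mRNA levels in the same libraries, and whether any of them bears on the transporters was not tested.

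Genes that sense amino acids for mTORC1 or for the kinase GCN2 went both ways. Of 27 tested 9 rose and 5 fell, with a median of −0.02. These are 33.3% and 18.5% of the list, beside 22.0% and 20.3% of all tested genes. With upper-quartile factors or library size alone 7 rose and 8 fell, which turns the majority. SESN2, the leucine-binding inhibitor of mTORC1 signalling, rose from 10.7 ± 1.59 to 78.7 ± 4.34 CPM (edgeR log2 fold change 2.87 with SE 0.10, adjusted p = 5.93e-31). FLCN and RRAGC, which act on and in the Rag GTPases, rose by 0.95 and 0.57. The 5 that fell were NPRL2 at −0.51, WDR24 at −0.41, GCN1 at −0.33, LAMTOR4 at −0.23 and NPRL3 at −0.18. In the edgeR test the call of WDR24 was lost without BARD1 siRNA replicate 3 (adjusted p = 0.0521), and that of NPRL3 without control siRNA replicate 1 (0.0756) or BARD1 siRNA replicate 1 (0.211). LAMTOR4 did not pass with DESeq2 (adjusted p = 0.103), with limma-voom (0.0592) or without any 1 library other than control siRNA replicate 1 (0.0539 to 0.180).

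The list drawn up for use of the imported cystine and glutamine had 9 higher and 2 lower of 16 tested, with a median of 0.18. It also holds genes that make glutamine or degrade glutathione, so these counts do not measure use. The shares were 56.25% and 12.5%, beside 22.0% and 20.3% of all tested genes. With upper-quartile factors or library size alone 7 rose and 3 fell. With DESeq2 or no filter on low counts 8 rose and 2 fell. CHAC1, which degrades glutathione, rose from 1.96 ± 0.329 to 26.5 ± 2.61 CPM (edgeR log2 fold change 3.75 with SE 0.16, adjusted p = 5.33e-26). GCLM, the modifier subunit of the enzyme that joins cysteine to glutamate, rose by 0.52. ASNS, which makes asparagine with glutamine as nitrogen donor, rose by 1.69 but only to 2.10 ± 0.413 CPM, and the aspartate aminotransferase GOT1 rose by 0.88. The 2 that fell were the mitochondrial aminotransferase GOT2 at −0.31 and glutathione synthetase, GSS, at −0.20. The call of GSS was lost without BARD1 siRNA replicate 2 (edgeR adjusted p = 0.0524).

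**Figure D5:**
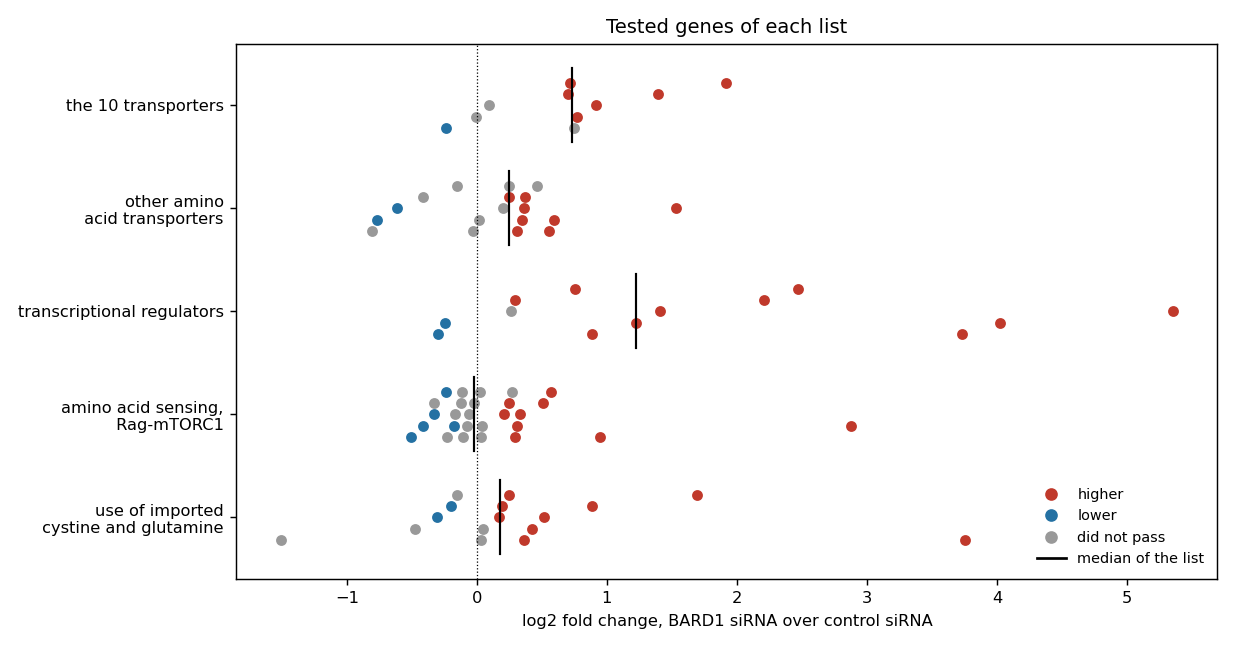
Log2 fold change (horizontal axis) of every tested gene of the 10 transporters and of 4 related lists, each point a gene coloured by its test result, with a black line at the median of each list. The medians are 0.73, 0.25, 1.22, −0.02 and 0.18 from top to bottom, and the vertical scatter within a list has no meaning.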

How the data were processed

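The authors deposited unnormalised whole-number read counts for each gene and a gene length that equals the union of GENCODE 29 exons for all 10 transporters. Per the submitters' processing notes, CASAVA and HISAT2 were used with GRCh38 (hg38); the sources used here give no versions, counting program or strand setting. All 6 count columns matched a sample label. Of 29419 genes with any count, filterByExpr (minimum count 10, total 15) left 15271. The edgeR 4.0.16 robust quasi-likelihood test (R 4.3.3) used TMM factors and group alone, with Benjamini-Hochberg adjustment over all tested genes. The standard error is the absolute log2 fold change over the square root of F, and 95% intervals use the normal quantile. Levels per length divide normalised CPM by the deposited length. The procedure was also run on simulated counts with the same dispersion for every gene, which cannot vouch for the calls of single genes here.

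Named were all 10 transporters, BARD1, ATF4, NFE2L2, MYC and, per list, up to 4 called genes with the largest change and those against the majority where 5 or fewer. ERBB2, SLC7A6 and BACH1 were added after their values were seen. The transporters and lists were chosen with earlier results of these data known. Motifs were searched on both strands of RefSeq windows. The alternatives tried were upper-quartile and RLE factors, library size alone, DESeq2 1.42.0, limma-voom (limma 3.58.1), a replicate block, a minimum of 1 CPM in 3 libraries or none at all, a fit to protein-coding genes alone, no robust estimation and leaving out each library.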

Additional observations from a re-analysis of the deposited data

How the results depend on the processing

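The 6 higher and 1 lower transporters held their counts under all 16 alternatives, and 158 of 160 values of single transporters kept their direction and their side of the threshold. The exceptions were those of SLC7A1, whose log2 fold change was 0.000914 without control siRNA replicate 1 and 0.022 without BARD1 siRNA replicate 1, within −0.030 to 0.022 over the single libraries left out. With upper-quartile factors or library size alone the number of sensing genes called lower went from 5 to 8 and that called higher from 9 to 7, and the share of higher genes among all called went from 51.9% to 41.5% and 42.2%. Leaving out single libraries gave 5 to 7 higher and 1 to 2 lower among the other transporters, and 1 to 3 lower in the cystine and glutamine list. The titles number the replicates alike, but same-numbered libraries did not deviate together (r = −0.0091, −0.015 and −0.022), and no library correlated best with its own number. With the replicate block 3390 genes were higher and 3122 lower, against 3355 and 3107. SLC6A9 and SLC43A1, at 23 to 82 counts per library, had the fewest counts of the 10 and the widest intervals; whether depth limits them was not tested.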
